A study of Mus musculus with 8 samples.

Results

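The 10 genes described here are transcription factors and cell adhesion genes of the epithelial-mesenchymal transition, chosen by name: Snai1, Snai2, Zeb1, Zeb2, Twist1, Twist2, Cdh1, Cdh2, Vim and Epcam. All 10 were found once among the 38115 genes counted in each tumor. No measured value enters this rule, but the list was chosen with earlier results of these data known. RNA was sequenced from 8 murine Myc-CaP prostate tumors, of which 4 were primary and 4 were metastatic. Myc-CaP is a cell line from a prostate carcinoma of a c-Myc transgenic FVB mouse whose transgene is driven in the prostate by a probasin promoter, so every group carried this transgene and the same parental line. The androgen sensitive line Myc-CaP/AS and the castrate resistant line Myc-CaP/CR were injected into the anterior prostate lobes of FVB males that were intact or had been castrated surgically, and 2 primary and 2 metastatic tumors of each phenotype were sequenced. The tumors are named AS1, AS2, CR1 and CR2 within the primary and within the metastatic group, and the numbers pair no tumors.

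All 4 metastases carry the label matched, but no source used here says which primary tumor belongs to which metastasis, so the tests treat the 8 tumors as unpaired. The age of the mice and the organ of each metastasis were not given either. Nothing states that replicate tumors came from separate mice, so p-values measure only the spread between these samples. Cell line and host castration changed together with phenotype and cannot be told apart in the comparison of castrate resistant with androgen sensitive tumors. Total counts were lower on median in CR than in AS tumors, and the ranges overlapped. After every tumor was thinned to the smallest total, 2111 of 15805 genes tested passed the threshold between phenotypes (edgeR). Without thinning, 1899 of 18889 passed. Of the 10 genes, 6 were tested after thinning and 0 passed. The part of depth in the phenotype differences was not tested. In bulk tumor RNA, a change in the number of cells of a type and a change in RNA per cell cannot be told apart.

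In an epithelium, E-cadherin (Cdh1) and the adhesion molecule Epcam hold neighbouring cells together, and alpha-, beta- and delta-catenins tie E-cadherin to the actin cytoskeleton. In the epithelial-mesenchymal transition the zinc finger repressors of the Snai and Zeb families, with the basic helix-loop-helix factors Twist1 and Twist2, can silence E-cadherin through CACCTG-type E-boxes. N-cadherin (Cdh2) and the intermediate filament vimentin (Vim) are then produced, and the cells become more motile. Zeb1, Zeb2, Twist2 and Vim are also expressed by fibroblasts, endothelial cells and leukocytes, which are part of any tumor.

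Of the 10 genes, 6 had a promoter sequence (250 bases before the RefSeq start, GRCm38.p6) in the table used. These were Epcam, Snai1, Vim, Zeb2, Twist1 and Twist2. The E-box CACCTG, read on both strands (CAGGTG on the other), was present in 17.2% of all 32851 such windows and was present more than once in 2.06%. Epcam held CACCTG 187 bases and CAGGTG 19 bases from its start, Snai1 held CACCTG 126 bases from its start, and the windows of the other 4 genes held neither. The windows of Epcam and Snai1 are printed 5′ to 3′ because they hold the E-box letters, which are in capitals.
Epcam (chr17:87635729-87635978, plus strand): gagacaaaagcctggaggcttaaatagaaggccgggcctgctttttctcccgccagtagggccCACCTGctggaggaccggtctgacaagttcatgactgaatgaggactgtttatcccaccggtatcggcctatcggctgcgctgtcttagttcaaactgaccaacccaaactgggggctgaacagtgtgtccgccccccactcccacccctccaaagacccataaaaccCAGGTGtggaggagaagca
Snai1 (chr2:167537945-167538194, plus strand): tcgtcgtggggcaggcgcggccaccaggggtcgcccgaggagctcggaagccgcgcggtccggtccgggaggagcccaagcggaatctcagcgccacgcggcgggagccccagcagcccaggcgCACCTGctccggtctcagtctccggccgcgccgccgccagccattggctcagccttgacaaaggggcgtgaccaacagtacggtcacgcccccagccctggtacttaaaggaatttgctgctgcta
A match describes letters in a window and is not evidence of binding.

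The genes were spread over 7 chromosomes. Vim (chr2:13573927-13582826), Zeb2 (chr2:44983632-45117395, minus strand) and Snai1 (chr2:167538195-167542814) lie on chromosome 2, and Zeb1 (chr18:5591860-5775467) and Cdh2 (chr18:16588877-16809246, minus strand) on chromosome 18. Twist2 lies at chr1:91801461-91848028, Cdh1 at chr8:106603351-106670246, Twist1 at chr12:33957671-33959829, Snai2 at chr16:14705852-14709385 and Epcam at chr17:87635979-87651129. Coordinates are those of GENCODE M21 on mm10, where all 10 are protein-coding and on the plus strand unless stated. For 8 of the 10 genes, 0% of the read-length windows along the transcript had a match in another gene's transcripts when 2 mismatches were allowed. This share was 0.898% for Zeb2 and 56.4% for Twist2, whose windows matched the antisense gene Gm29100. The exons of Gm29100 overlap 46.5% of the Twist2 exon bases, and the strand setting of the counting was not given, so the Twist2 values may hold reads of that antisense gene.

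Levels between genes were compared as RPKM, the count divided by exon length and by the TMM-adjusted total count of the tumor. Vim was the most abundant of the 10 genes, with a mean of 13.7 ± 5.31 RPKM (SD, n = 8) and a range of 8.81 to 24.3. It stood above 90.6% of 21171 protein-coding genes. Zeb2 followed with 2.22 ± 0.453 RPKM, then Twist2 with 1.20 ± 0.462 and Zeb1 with 0.360 ± 0.153 (SD, n = 8 each). Zeb2 stood above 64.0% of the protein-coding genes, Twist2 above 56.4% and Zeb1 above 46.9%.

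The other 6 genes were near the limit of counting. Snai1 had a mean of 0.0966 RPKM, Twist1 of 0.0828, Cdh1 of 0.0703, Snai2 of 0.0541, Epcam of 0.0530 and Cdh2 of 0.0527. Each of these 6 stood above at most 39.0% of the protein-coding genes. The largest count of any of them in any tumor was 38, reached by Cdh1 in primary AS1 and by Cdh2 in metastatic AS1, at total counts between 20905806 and 91886163.

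Only some neighbours in this order were separated. The lowest Vim value was above the highest Zeb2 value, and the lowest Zeb1 value was above the highest Snai1 value. Zeb2 was above Twist2 in 7 of 8 tumors and Twist2 above Zeb1 in 8 of 8, although the ranges of each pair overlapped. Snai1, Twist1, Cdh1, Snai2, Epcam and Cdh2 overlapped each other and their order carries no weight. With the longest coding transcript in place of all exon bases, Vim (29.6 RPKM), Zeb2 (4.85), Twist2 (1.51) and Zeb1 (0.638) kept the first 4 places.

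**Figure D1:**
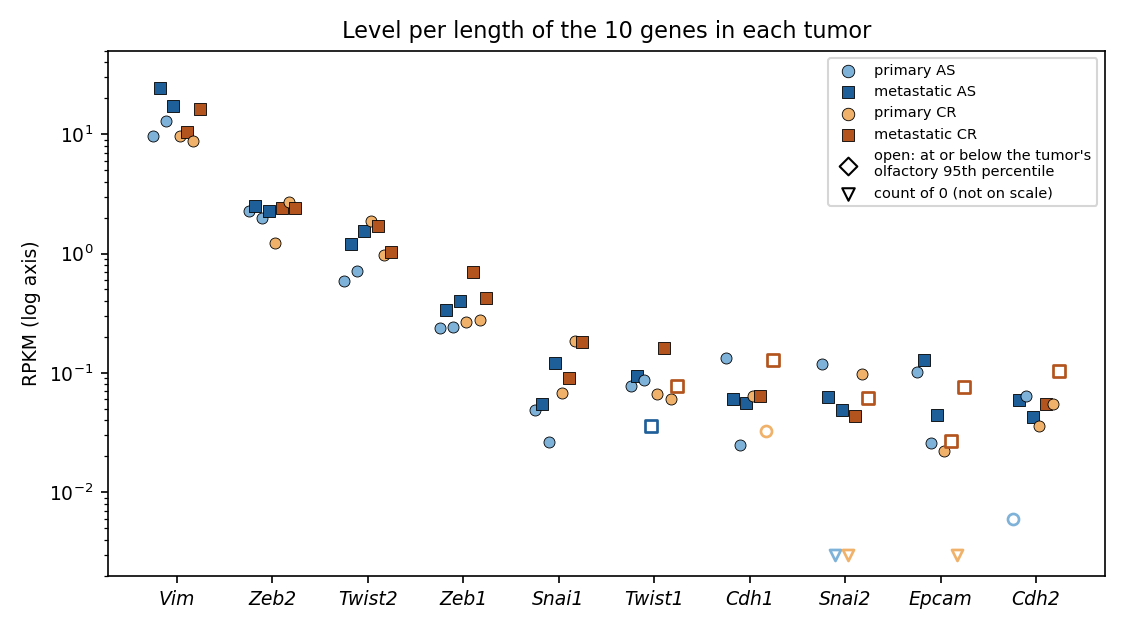
RPKM on a log axis for the 10 genes in each of the 8 tumors. Circles are primary and squares metastatic tumors, filled symbols lie above the 95th percentile of olfactory receptor genes in the same tumor, open symbols lie at or below it, and open triangles mark a count of 0. Vim, Zeb2, Twist2 and Zeb1 are filled in all 8 tumors, while 5 of the 6 other genes are open in metastatic CR2.

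How far the low genes stood above stray reads was read from 998 protein-coding olfactory receptor genes, a measure added after seeing the data. Metastatic AS2 and metastatic CR2 stood apart in the share of receptor genes with a count. It was 72.5% and 74.1% there, against 10.4% to 30.9% in the other 6 tumors. This share depends on depth, and metastatic AS2 had the largest total count, 91886163. The 95th percentile of the receptor genes was 0.131 RPKM in metastatic CR2, 0.0479 in primary CR2, 0.0392 in metastatic AS2 and 0.00856 to 0.0291 elsewhere. By this percentile and by the summed CPM of the receptor genes (40.2 against 46.5), metastatic AS2 was below primary CR2. By the median receptor gene it was above (0.00644 against 0 RPKM). Thinned to the smallest total, metastatic AS2 also had more genes of any kind with a count (23562 against 21920). Of the 10 genes, 5 were above the 95th percentile in metastatic CR2, 8 in primary CR2 and 9 or 10 in each of the other tumors. In metastatic CR2, Snai2, Twist1, Cdh1, Cdh2 and Epcam were at or below it, with Snai2 above 78.3% and Cdh1 above 94.5% of the receptor genes. Vim, Zeb2, Twist2 and Zeb1 were above at least 99.8% of them in every tumor.

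**Figure D2:**
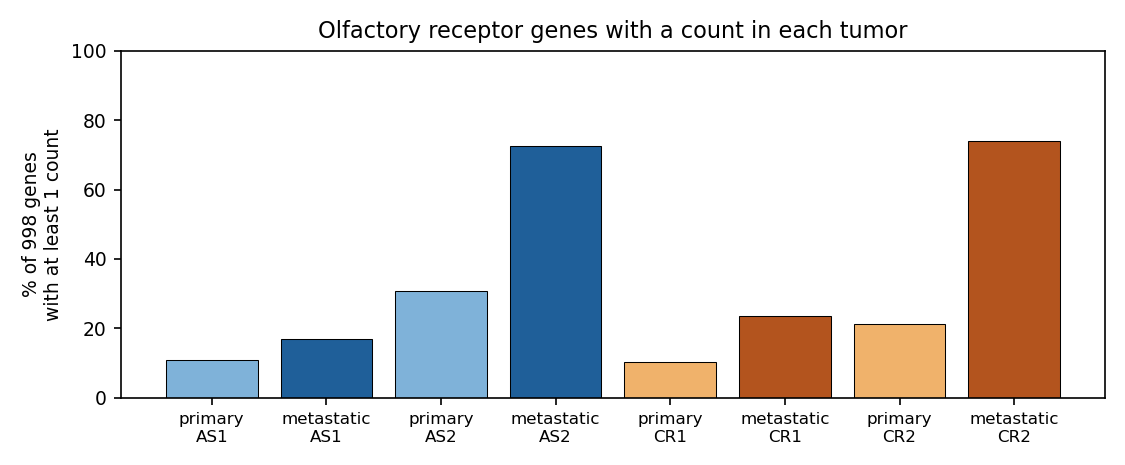
Share of 998 olfactory receptor genes with at least 1 count in each tumor, in percent. Metastatic AS2 (72.5%) and metastatic CR2 (74.1%) are the tallest bars, and the other 6 tumors lie between 10.4% and 30.9%.

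The E-cadherin gene Cdh1 was counted 38 and 8 times in the primary AS tumors (AS1 and AS2) and 24 and 3 times in the primary CR tumors (CR1 and CR2). The counts were 22 and 26 in the metastatic AS tumors and 10 and 14 in the metastatic CR tumors, in the same order. As CPM (the count relative to the TMM-adjusted total count of the tumor, in the usual scaling), the level was 0.290 ± 0.224 in primary and 0.353 ± 0.156 in metastatic tumors (n = 4 each, SD). The groups overlapped, and the highest values, 0.606 in primary AS1 and 0.586 in metastatic CR2, came from different groups.

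Epcam, which encodes an adhesion molecule of simple epithelia, was counted 14 and 4 times in primary AS1 and AS2, and 4 and 0 times in primary CR1 and CR2. The metastatic counts were 22 and 10 in the AS tumors and 2 and 4 in the CR tumors. The count of 0 in primary CR2 allows a level of up to 0.149 CPM, taking 3 counts as the limit and covering counting error only. The 4 AS tumors held between 0.0570 and 0.279 CPM and the 4 CR tumors between 0 and 0.167, so the ranges overlapped.

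The N-cadherin gene Cdh2 was counted 3 times in primary AS1 and 36, 24 and 9 times in primary AS2, CR1 and CR2. It was counted 38, 35, 15 and 20 times in metastatic AS1, AS2, CR1 and CR2. The level was 0.324 ± 0.207 CPM in primary and 0.525 ± 0.216 CPM in metastatic tumors (n = 4 each, SD), and the groups overlapped. The highest value, 0.837 CPM, was in metastatic CR2, where Cdh2 stood above 91.1% of the olfactory receptor genes.

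Low Cdh1 and Epcam were set beside other genes of the epithelial state, from lists chosen with earlier results of these data known. Of 26 junction and polarity genes, 15 had a mean of at least 1 RPKM and 8 were under 0.1 RPKM. Of 14 epithelial regulators, 9 were at 1 RPKM or more and 4 under 0.1 RPKM. The other epithelial and adhesion genes described with them were picked for their level after the values were seen.

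The tight junction gene Cldn3 ranged from 70.9 to 124 RPKM over the 8 tumors and Spint2, an inhibitor of membrane serine proteases, from 30.5 to 46.1 RPKM. Grhl2, a transcription factor that maintains epithelial junction genes, ranged from 3.91 to 8.55 RPKM, and the epithelial splicing factor Esrp2 from 7.82 to 14.8 RPKM. Foxa1, a pioneer factor of the prostate epithelium, ranged from 14.5 to 30.6 RPKM. All of these were above Cdh1 and Epcam in every tumor.

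Other epithelial genes were as low as Cdh1 or lower. Cldn7, a claudin that binds Epcam, averaged 0.0106 RPKM, the tight junction gene Ocln 0.0212 RPKM and Esrp1, the paralog of Esrp2, 0.0237 RPKM. Among the catenins, which bind the cytoplasmic tail of cadherins, Ctnnb1 averaged 62.6 RPKM, Ctnna1 33.7 RPKM and Ctnnd1 19.4 RPKM. Of 13 other cadherins, 10 were under 0.1 RPKM, and the highest was the endothelial Cdh5 at 4.28 RPKM. The intermediate filament gene Krt8 ranged from 18.6 to 363 RPKM, while Krt18, whose keratin pairs with that of Krt8, ranged from 0.0690 to 0.291 RPKM. For these genes, sequence shared with other genes was not examined.

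**Figure D3:**
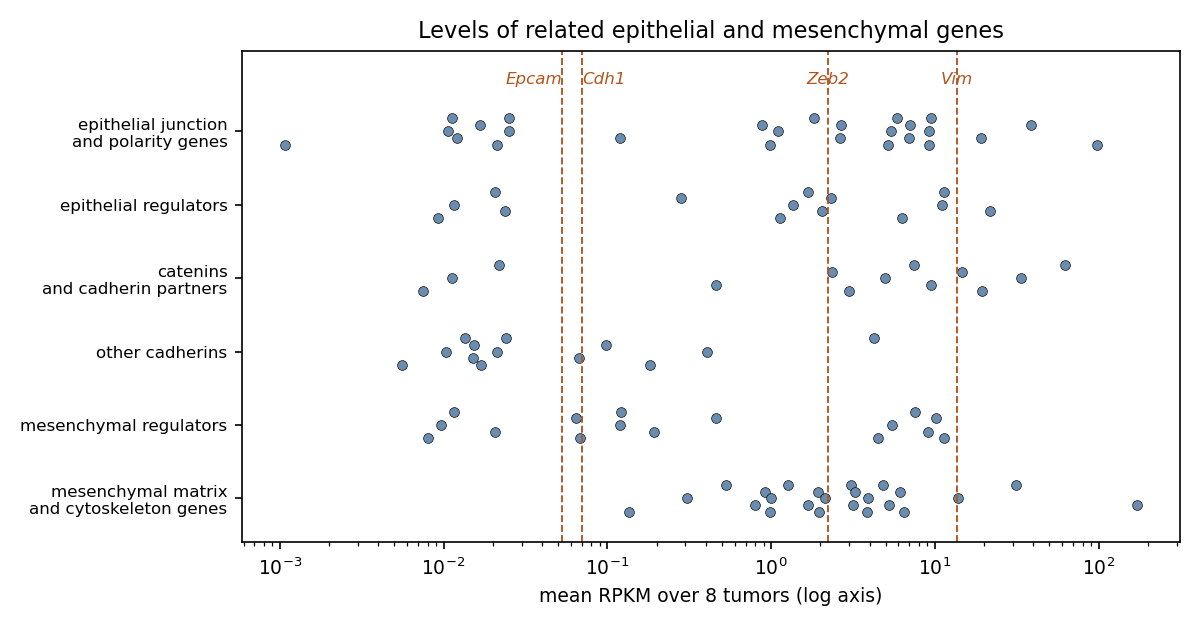
Mean RPKM over the 8 tumors on a log axis, with 1 point per gene of 6 lists, and dashed lines at the means of Epcam, Cdh1, Zeb2 and Vim. Vertical scatter within a list has no meaning. The epithelial lists fall on both sides of Cdh1 (0.0703 RPKM), with 15 of 26 junction and polarity genes at 1 RPKM or more.

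The comparison of metastatic with primary tumors is the main question of the study. Of the 10 genes, 6 passed the low-count filter of this comparison: Zeb1, Zeb2, Twist2, Cdh1, Cdh2 and Vim. None of the 6 passed an adjusted p of 0.05 in the quasi-likelihood test of edgeR, and 0.0% of the 17104 genes tested did. The paper, in contrast, reports differentially expressed genes between these tumor types. It used DESeq and fewer primary tumors than the 4 used here. It mentions correction for multiple testing, and the cutoff it gives for its gene ontology input is a p-value under 0.05. Whether that p-value was adjusted is not said, so the thresholds may differ. At an unadjusted p under 0.05, Zeb1 and Vim passed in edgeR, in DESeq2 and in limma-voom, beside 2.68% of all genes tested in edgeR. That share depends on the terms of the fit, which had no phenotype term. With phenotype as a covariate, 1146 of the 17104 genes had an unadjusted p under 0.05 in edgeR, against 459 without it.

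Zeb1, a zinc finger repressor of E-cadherin, measured 2.46 and 2.47 CPM in primary AS1 and AS2, and 2.76 and 2.82 CPM in primary CR1 and CR2. In the metastases it measured 3.46 and 4.12 CPM in AS1 and AS2, and 7.16 and 4.35 CPM in CR1 and CR2. The 4 primary tumors lay close together and all 4 metastatic tumors lay above them, with means of 2.63 ± 0.193 and 4.77 ± 1.64 CPM (SD, n = 4 each). This was a log2 fold change of 0.86 ± 0.278 (SE, adjusted p = 0.997, edgeR).

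Zeb1 was the only 1 of the 6 genes tested whose metastatic tumors all lay above the primary tumors. This held for 0.854% of all 17104 genes, and the opposite order, which none of the 6 showed, for 0.848%. Zeb1 was higher in metastatic tumors by a log2 difference of 0.62 (adjusted p = 1.0, edgeR) within the AS tumors and of 1.02 (adjusted p = 0.625, edgeR) within the CR tumors. The difference between these values was not past the threshold (interaction 0.41, adjusted p = 0.964, edgeR). Over 20 alternatives the log2 fold change of Zeb1 was 0.61 to 1.01. The fit without metastatic AS2 and metastatic CR2, the tumors with the largest share of olfactory receptor genes with a count, is 1 of these 20.

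Vim measured 45.9 and 61.5 CPM in primary AS1 and AS2, and 46.0 and 41.8 CPM in primary CR1 and CR2. In the metastases it measured 115 and 81.5 CPM in AS1 and AS2, and 49.7 and 77.2 CPM in CR1 and CR2. Of the metastatic tumors, 3 lay above every primary tumor and CR1 lay within the primary range. The means were 48.8 ± 8.69 CPM in primary and 80.8 ± 26.8 CPM in metastatic tumors (n = 4 each, SD), a log2 fold change of 0.73 ± 0.258 (SE, adjusted p = 0.997, edgeR). The log2 difference was 0.87 within the AS tumors (adjusted p = 1.0, edgeR) and 0.50 within the CR tumors (adjusted p = 0.676, edgeR).

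Zeb2, the paralog of Zeb1, measured 45.0, 39.3, 24.6 and 54.1 CPM in primary AS1, AS2, CR1 and CR2. It measured 49.97, 45.1, 47.8 and 48.4 CPM in metastatic AS1, AS2, CR1 and CR2. The metastatic tumors lay inside the primary range, which was wide because of primary CR1. The log2 fold change was 0.23 ± 0.229 (SE), with an adjusted p of 0.997 in edgeR's test.

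Twist2 measured 1.87, 2.28, 5.95 and 3.07 CPM in primary AS1, AS2, CR1 and CR2, and 3.84, 4.87, 5.35 and 3.27 CPM in metastatic AS1, AS2, CR1 and CR2. The primary AS tumors were the lowest of the 8, and the other 6 tumors overlapped. Over all tumors the log2 fold change was 0.39 ± 0.383 (SE, adjusted p = 0.997, edgeR). It was 1.06 within the AS tumors (adjusted p = 1.0, edgeR) and -0.11 within the CR tumors (adjusted p = 0.956, edgeR), and the interaction of -1.17 did not pass the threshold (adjusted p = 0.964, edgeR). The overlap with antisense Gm29100 applies to each of these Twist2 values.

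**Figure D4:**
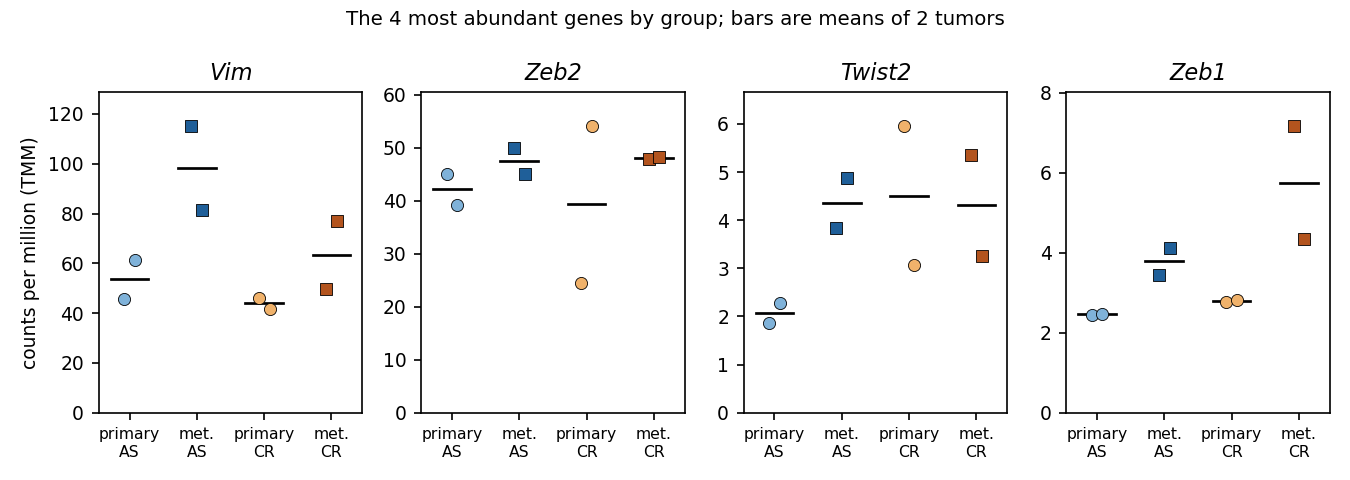
CPM of Vim, Zeb2, Twist2 and Zeb1 by group, with 1 point per tumor and a bar at the mean of the 2 tumors, each panel on its own axis from 0. Zeb1 is 2.46 to 2.82 in the 4 primary tumors and 3.46 to 7.16 in the 4 metastatic tumors, while the other genes overlap between tumor types.

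The cadherins did not separate the tumor types. The log2 fold change of Cdh1 was 0.20 ± 0.587 (SE, adjusted p = 0.997, edgeR), and it was -0.06 without metastatic CR2 and metastatic AS2. The log2 fold change of Cdh2 was 0.69 ± 0.633 (SE, adjusted p = 0.997, edgeR). Of 6 other cadherins tested, Cdh13 had the smallest p, with a log2 fold change of 1.15 ± 0.481 (SE, adjusted p = 0.997, edgeR), and 0 of 6 passed the adjusted threshold.

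Snai1, Snai2, Twist1 and Epcam did not pass the filter and were compared by an exact two-sided permutation test of CPM over all 70 arrangements, whose smallest possible p is 0.0286. Snai1, a founding repressor of E-cadherin, was counted 3 to 9 times in primary and 5 to 20 times in metastatic tumors, and its mean of 0.181 CPM in metastatic against 0.132 in primary tumors gave an exact p of 0.486. Snai2 was counted 15, 0, 0 and 4 times in primary AS1, AS2, CR1 and CR2 and 10, 10, 3 and 3 times in the metastatic tumors of the same names, and both means were 0.109 CPM (exact p = 1.0). The 2 counts of 0 allow levels of up to 0.0428 CPM in primary AS2 and 0.0364 CPM in primary CR1.

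Twist1 was counted between 2 and 12 times in every tumor. Its mean was 0.150 CPM in metastatic and 0.120 CPM in primary tumors (exact permutation p = 0.60). Epcam averaged 0.151 CPM in metastatic and 0.0822 CPM in primary tumors (exact permutation p = 0.343).

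The castrate resistant and androgen sensitive tumors were compared with tumor type as a covariate. All 10 genes passed the filter here, and 0 of 10 passed an adjusted p of 0.05 in the quasi-likelihood test of edgeR, where 10.1% of the 18889 genes tested passed, 4.76% higher and 5.29% lower in CR tumors. At an unadjusted p under 0.05, 1 of the 10 (Vim) passed in edgeR and in limma-voom and 0 of 10 in DESeq2, beside 27.1% of all genes in edgeR. None of the 10 had its CR tumors all above or all below the AS tumors, which held for 8.64% and 9.04% of the tested genes.

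Vim averaged 53.7 ± 16.0 CPM in CR and 76.0 ± 29.9 CPM in AS tumors (SD, n = 4 each), a log2 difference of -0.49 ± 0.206 (SE, adjusted p = 0.166, edgeR). The difference was -0.68 (adjusted p = 0.254, edgeR) within the metastatic and -0.30 (adjusted p = 0.702, edgeR) within the primary tumors. Twist2 averaged 4.41 ± 1.46 CPM in CR and 3.21 ± 1.39 CPM in AS tumors, a log2 difference of 0.54 ± 0.349 (SE, adjusted p = 0.352, edgeR). Within the primary tumors, the Twist2 difference was 1.13 (adjusted p = 0.297, edgeR), and within the metastatic tumors it was -0.04 (adjusted p = 0.964, edgeR).

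Zeb1 differed by 0.37 ± 0.237 and Zeb2 by -0.07 ± 0.222 on the log2 scale (SE, adjusted p = 0.342 and 0.861, edgeR). The largest fitted differences belonged to genes with few counts. Epcam differed by -1.35 ± 0.857 and Snai1 by 1.02 ± 0.673 (SE, adjusted p = 0.343 and 0.359, edgeR), and their exact permutation p-values on CPM were 0.20 and 0.143. Cdh1, Cdh2, Twist1 and Snai2 differed by 0.02, 0.45, 0.27 and -0.41, each with an SE of 0.632 or more and an adjusted p of 0.688 or more in edgeR.

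The difference between metastatic and primary tumors was not shown to vary with phenotype for any of the 10 genes. In the interaction test, 0 of 10 genes passed the adjusted threshold, as did 0.0% of 18889 genes. At an unadjusted p under 0.05, 0 of 10 genes passed in edgeR, DESeq2 and limma-voom, beside 2.74% of all genes in edgeR. In the 4 comparisons within 1 phenotype or within 1 tumor type, 0 of 10 genes passed the adjusted threshold. Over all 18889 genes, 0.0% passed between tumor types within AS and within CR tumors (edgeR), and 0.296% and 0.36% passed between phenotypes within primary and within metastatic tumors. At an unadjusted p under 0.05 in edgeR, Twist2 and Vim passed between tumor types within the AS tumors, beside 2.45% of all genes, and Zeb1 within the CR tumors, beside 7.74%. Twist2 passed between phenotypes within the primary tumors, beside 14.2% of all genes, and 0 of 10 genes within the metastatic tumors, beside 19.9%.

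**Figure D5:**
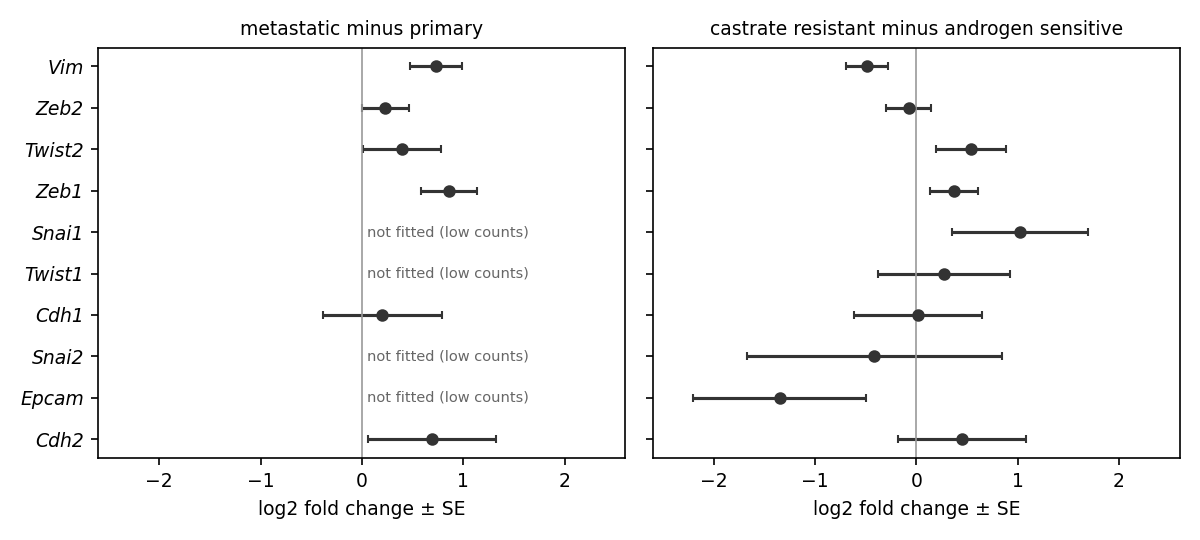
Log2 fold changes with SE bars from edgeR's quasi-likelihood fits for the comparison of metastatic with primary tumors (left) and of castrate resistant with androgen sensitive tumors (right). Zeb1 (0.86) and Vim (0.73) have the values farthest from 0 relative to their SE on the left, and no point passes the adjusted threshold on either side.

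Genes that act with the 10 genes were read from the same fits. In the comparison of metastatic with primary tumors, 0 genes of any list passed the adjusted threshold. The median log2 fold change was -0.07 over 18 junction and polarity genes, 0.06 over 10 epithelial regulators and -0.29 over 24 mesenchymal matrix and cytoskeleton genes, beside -0.03 over all genes tested. Periostin (Postn), a matrix protein of activated fibroblasts, had the smallest p among the matrix genes. It measured 113 and 57.2 CPM in metastatic AS1 and AS2 and 2.77 to 12.7 CPM in the other 6 tumors, a log2 fold change of 2.52 ± 0.788 (SE, adjusted p = 0.997, edgeR). Loxl2, a lysyl oxidase that crosslinks collagen, followed with 1.05 ± 0.354 (SE, adjusted p = 0.997, edgeR). Of the 24 matrix and cytoskeleton genes, only 8 had a log2 fold change above 0. Col1a2 and Col1a1, which are also among the fibroblast markers, had -0.797 ± 0.304 and -0.563 ± 0.27 (SE, adjusted p = 0.997 each, edgeR).

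In the comparison of castrate resistant with androgen sensitive tumors, 10.1% of all genes passed the threshold. Of 11 epithelial regulators, 1 rose and 2 fell in CR tumors. Ehf, an epithelial ETS factor, fell from 114 ± 23.7 CPM in AS to 7.66 ± 6.11 CPM in CR tumors (SD, n = 4 each), a log2 difference of -3.96 ± 0.48 (SE, adjusted p = 0.00423, edgeR), and passed the threshold in all 16 alternatives. Trp63, the p63 gene of basal epithelium, fell by 1.82 on the log2 scale (adjusted p = 0.0319, edgeR). Klf5, a zinc finger factor of epithelial progenitors, rose by 1.91 on the log2 scale (adjusted p = 0.015, edgeR).

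Of 22 junction and polarity genes, 0 rose and 1 fell, beside 4.76% and 5.29% of all genes tested. This was Rab25, a small GTPase of apical recycling, with a log2 difference of -2.33 (adjusted p = 0.0331, edgeR). Of 11 catenins and cadherin partners, Ctnnbip1, an inhibitor of beta-catenin, rose by 0.87 on the log2 scale (adjusted p = 0.0493, edgeR), and the catenin Arvcf fell by 1.16 (adjusted p = 0.0133, edgeR). None of 7 other cadherins passed the threshold.

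Of 12 mesenchymal regulators, 1 rose and 0 fell, beside 4.76% and 5.29% of all genes tested. Sox4, an SRY-box factor of progenitor cells, rose from 19.4 ± 4.82 CPM in AS to 53.3 ± 7.37 CPM in CR tumors (SD, n = 4 each), a log2 difference of 1.42 ± 0.204 (SE, adjusted p = 0.00684, edgeR). Of 24 mesenchymal matrix and cytoskeleton genes, caldesmon (Cald1) and fibronectin (Fn1) rose, by 1.90 and 1.14 on the log2 scale (adjusted p = 0.015 and 0.0346, edgeR), and Postn fell by 2.02 (adjusted p = 0.037, edgeR). Of 19 TGF-beta pathway genes, 0 passed the threshold in edgeR, and the smallest p was that of the ligand Tgfb3, with a log2 difference of 0.60 ± 0.229 (SE, adjusted p = 0.132).

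Over the 16 alternatives none of the list genes that passed the threshold between phenotypes changed direction, and Arvcf, for example, stayed between -1.33 and -1.04 and Fn1 between 0.97 and 1.35 on the log2 scale. The adjusted p-values moved across the threshold more often. Ehf and Sox4 passed the threshold in each of the 8 fits that left out 1 tumor. Arvcf lost the call without metastatic AS2 (adjusted p = 0.0547, edgeR), Cald1 without metastatic AS1 or metastatic AS2 and Klf5 without metastatic AS1, metastatic AS2 or primary CR2, with adjusted p-values up to 0.0617 and 0.064. Fn1, Rab25 and Trp63 lost it in 6 of the 8 fits, Postn in 7 and Ctnnbip1 in 8, with adjusted p-values up to 0.13, 0.0902, 0.085, 0.123 and 0.202. Without metastatic AS2 and metastatic CR2, 250 genes passed in place of 1899 (edgeR), and of the named genes only Ehf passed.

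The marker genes of other cells in the tumors did not separate the tumor types. The summed level of 9 endothelial markers was 57.5 to 82.6 CPM in primary and 65.8 to 115 CPM in metastatic tumors. The sum of 10 fibroblast markers was 76.5 to 114 CPM in primary and 61.1 to 100 CPM in metastatic tumors, and that of 12 leukocyte markers 337 to 491 and 212 to 464 CPM. The sum of 8 smooth muscle markers was 11.8 to 39.9 CPM in primary and 14.6 to 25.5 CPM in metastatic tumors. No marker of these lists was at 0 in all tumors, and their part in the Zeb1 and Vim values was not tested. Between phenotypes, the leukocyte sum was 212 to 449 CPM in CR and 337 to 491 CPM in AS tumors. The median log2 difference was -0.64 over 10 leukocyte markers tested and -0.43 over 9 endothelial markers. It was -0.15 over 8 smooth muscle and 0.13 over 10 fibroblast markers. The mean of Vim was lower in CR tumors, and the part of these cells in it was not tested. None of the fibroblast, endothelial, leukocyte, smooth muscle or lung markers tested passed the adjusted threshold between phenotypes (edgeR). Trp63 among 5 basal markers and Fgb and Ttr among 5 hepatocyte markers fell in CR tumors, beside 5.29% of all genes tested (edgeR).

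The labelled tissue was checked with epithelial markers. The luminal keratin Krt8 was at 18.6 RPKM or more in every tumor, while Krt18 reached at most 0.291 RPKM. Only reads with a single genomic location were kept, and sequence that Krt18 shares with other genes was not examined. The summed level of 6 basal markers was 386 to 824 CPM, and 3 of these genes had at least 1 CPM. Dst alone measured 266 to 571 CPM, and Krt14 reached at most 0.343 CPM. Per length, the highest of the 6 was Krt15, with a mean of 104 RPKM. Among 7 hepatocyte markers, the sum of 95.1 to 10100 CPM came mostly from the fibrinogen gene Fgb, at 87.8 to 10100 CPM. The sum of 5 lung epithelium markers was 0.292 to 0.842 CPM.

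The 4 genes Vim, Zeb2, Twist2 and Zeb1 averaged at least 1 CPM. Over the 8 tumors, the pattern of each was compared with 10296 genes of at least 5 CPM on average. The measure was Pearson's r of log2(CPM + 1). Tumors of a phenotype share a cell line, and the 8 tumors are few, so the values are descriptions. Zeb1 was most like Dock4 (r = 0.968), Gpr116 (r = 0.961) and Cul2 (r = 0.946). Zeb2 was most like Top1 (r = 0.978), Wdr44 (r = 0.967) and Arid4a (r = 0.964). Twist2 was most like Chaf1b (r = 0.980), Tgif1 (r = 0.971) and Thumpd2 (r = 0.955).

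Vim was most like Cd109 (r = 0.946), Arrb2 (r = 0.933) and the pseudogene Gm10357 (r = 0.931). These partners are the highest of all genes searched, so their r is high by selection. Among the 4 genes themselves, the closest pair was Zeb1 and Twist2 (r = 0.572), and the farthest Zeb2 and Twist2 (r = -0.377). Zeb1 and Zeb2 had an r of 0.323, and Zeb1 and Vim of 0.184.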

How the data were processed

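RNA-seq counts of 8 Myc-CaP tumors were analysed, 2 in each of 4 groups given by tumor type and phenotype. The authors depleted ribosomal RNA, made stranded libraries and sequenced paired reads of 101 bases. They kept reads that mapped to a single mm10 location with up to 2 mismatches. The paper names Bowtie, and the submitters' processing notes list CASAVA 1.8.2 and TopHat2 2.0. The counting tool and annotation release were not given in the sources used here. The deposited values are raw counts per gene, without normalization.

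The analysis used edgeR 4.0.16 in R 4.3.3 (filterByExpr, TMM, quasi-likelihood test, Benjamini-Hochberg adjustment, threshold 0.05). Tumor type was the only term in the main comparison, and was a covariate for phenotype. The interaction and the differences within groups came from a fit of the 4 groups. Filters left 17104 and 18889 genes. RPKM used exon lengths of GENCODE M21, which holds 36343 of the 38115 genes. DESeq2 1.42.0 and limma 3.58.1 were alternatives, beside RLE factors, no filter, protein-coding genes, thinning and leaving out each tumor. Further alternatives were phenotype as a covariate of tumor type, phenotype as the only term, and the 4 possible pairings as a block. In simulated counts with 200 changed genes, the comparison of metastatic with primary tumors (17104 genes) found 1.49%, 56.7% and 78.8% of the changes of 2-, 4- and 8-fold. That of castrate resistant with androgen sensitive tumors (18889 genes) found 29.9%, 70.1% and 77.3%, and the interaction (18889 genes) found 0.0%, 4.48% and 31.8%.

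The 10 genes and the other 15 lists were chosen with earlier results of these data known. Named genes were the 10 members and the 3 most similar genes of each member with at least 1 CPM on average. From each list they were the genes past the threshold (at most 3 in each direction) or otherwise those with the smallest p. Beyond this rule, epithelial, keratin and adhesion genes were named for their level after the values were seen. Median total counts were 72949495 (AS) and 32748049 (CR). No pair of tumors had identical counts. Some luminal prostate markers are not reported here.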

Additional observations from a re-analysis of the deposited data

Results flagged for a closer look

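Within groups of 4 tumors, the highest or lowest value was examined by Dixon's test, with a critical value of 0.829. Of 40 groups, 2 were past it, and chance alone flags about 1 group in 20. Twist1 in metastatic CR1, at 0.263 CPM, stood far above the other 3 CR tumors. It rests on 9 counts, and the other CR tumors had 9, 2 and 3 counts. Cdh1 in metastatic CR2, at 0.586 CPM, stood far above the other 3 metastatic tumors. It rests on 14 counts, in the tumor where 74.1% of the olfactory receptor genes had a count, and Cdh1 stood above 94.5% of those genes there.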

How the results depend on the processing

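None of the 10 genes passed the adjusted threshold under any alternative of any comparison. The metastatic minus primary log2 fold change stayed between 0.61 and 1.01 for Zeb1 (smallest adjusted p 0.70) and between 0.50 and 0.92 for Vim (smallest adjusted p 0.70) over 20 alternatives. The labels call the metastases matched but do not give the pairing. With each of the 4 pairings that are possible as a replicate block, Zeb1 gave 0.80 to 0.81, Vim 0.68, and 0 genes passed. Some directions turned, among the genes with low counts and for Zeb1 and Zeb2, and the cause was not tested.

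Genes past the threshold between phenotypes numbered 1899, against 3545 with DESeq2, 3098 with every gene counted, 250 without metastatic CR2 and metastatic AS2 and 399 to 3784 with 1 tumor left out. The interaction gave 0 genes, against 2 with DESeq2, 217 with every gene and 0 to 82 with 1 tumor left out, the highest without primary CR2. With 1 tumor left out, the lone tumor of a group was assumed to vary like the others: the tumor type difference within CR tumors gave 0 to 235 genes (0 with all tumors), and the phenotype difference gave 7 to 387 within primary (56 with all tumors) and 5 to 11 within metastatic tumors (68 with all tumors).

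Direction turned as follows. With 1 tumor left out, the log2 values between tumor types were -0.12 to 0.85 for Cdh1. Between phenotypes they were -0.33 to 0.74 for Cdh1, -1.36 to 0.88 for Snai2, -0.314 to 0.0769 for Zeb2 and -0.19 to 0.41 for Twist1. In the interaction they were -5.42 to 5.82 for Snai2, -0.0939 to 0.724 for Zeb1, -0.37 to 0.74 for Zeb2, -0.39 to 2.02 for Cdh1, -2.29 to 1.06 for Cdh2 and -0.0808 to 5.14 for Epcam. Cdh1 between phenotypes was -0.0517 with every gene and -0.0264 after thinning, and the Cdh2 interaction was -0.37 in limma-voom and -0.46 after thinning. Without metastatic CR2 and metastatic AS2, Cdh1 was -0.0607 between tumor types and -0.40 between phenotypes, and the CPM differences were -0.0148 for Snai1 and -0.00217 for Snai2. With 1 tumor left out, the CPM differences between tumor types were -0.0363 to 0.0434 for Snai2 and -0.00745 to 0.0607 for Twist1.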
